A study of Mus musculus with 6 samples.

Results

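The core circadian clock loop comprises 10 of the 24628 genes in the deposited table. Members were taken by symbol as the transcriptional activators Arntl (BMAL1), Clock and Npas2, and the repressors Per1, Per2, Per3, Cry1, Cry2, Nr1d1 (REV-ERBα) and Nr1d2 (REV-ERBβ). They were measured by RNA-seq in 6 libraries of mouse lymphocytes, which the series text describes as group 1 innate lymphoid cells (ILC1s), innate lymphocytes related to natural killer (NK) cells that produce interferon-γ. The cKO group holds 3 libraries titled treatment, whose data columns join the names Ncr1 and Rora, and the other group holds 3 libraries titled Rorafl/fl (floxed). The series text sets cKO against wild-type ILC1s, and the treatment libraries are therefore read as cKO by elimination. No Cre line, sort gate, pooling, age, sex or time of day of collection is given in the sources used here. Whether the replicates are separate animals is not stated either, and the p-values below therefore describe the spread between these libraries, which may be technical.

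In the mammalian clock, ARNTL pairs with CLOCK or NPAS2 and activates genes that carry E-boxes, among them the Per, Cry and Nr1d genes. PER and CRY proteins return to the nucleus and inhibit this pair, which closes the main loop. In a second loop the nuclear receptors RORα and REV-ERB compete for ROR elements (ROREs), where ROR proteins activate and REV-ERB proteins repress, and Arntl is the best known target. Rora is the gene targeted in this study, and the comparison shows how the loop's mRNAs differ between the groups.

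RefSeq promoter windows of build GRCm38.p6, the assembly that mm10 denotes, hold 300 bases each, from 250 bases before a transcript start. They were available for 9 of the 10 members; none was matched for Per2, which is named only. The letters searched on both strands were TAGGTCA and TGGGTCA (RORE cores), CACGTG (E-box), CACGTT (the E-prime box, a variant E-box) and TGACGT (the half-site of the cAMP response element). ROREs and E-boxes are elements through which the loop is known to act, and the sites printed here are matches of letters only. Capitals mark the match, each sequence runs 5′ to 3′ on the gene's strand, and an E-prime box on the opposite strand reads AACGTG. No match printed here overlaps another.

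Arntl RORE core, chr7:113207530-113207559, plus strand: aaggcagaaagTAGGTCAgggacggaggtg
Arntl second stretch, chr7:113207485-113207514, plus strand: ggagcggattggtcggaaagTAGGTTAgtg
Cry1 E-box, chr10:85185096-85185125, minus strand: gtgccggtggtCACGTGgggtgcatgccgc
Cry1 E-prime box, chr10:85185115-85185144, minus strand: cacacttcagaAACGTGaggtgccggtggt
Per1 E-box, chr11:69098772-69098801, plus strand: gcacccaagtcCACGTGcagggatgtgtgt
Per1 cAMP half-site, chr11:69100009-69100038, plus strand: agctcagcggcTGACGTcggtttccctggc
Cry2 E-prime box, chr2:92434217-92434246, minus strand: cacatggtgggAACGTGagggggcggagcc
Nr1d1 E-prime box, chr11:98775387-98775416, minus strand: gcacagatctcAACGTGccggctgctggaa

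Of the 9 members with a window, Arntl alone held a RORE core, TAGGTCA, a match found in 2.61% of all 32851 windows. It starts 30 bases downstream of a RefSeq start, in an exon of the deposited gene model. The variant TAGGTTA, searched only after the Arntl sequence had been read, lies upstream of it in the same gene model and occurs in 1.44% of windows. TGGGTCA, found in 3.98% of windows, matched no member. CACGTG was found in Cry1 and Per1 (7.15% of windows), CACGTT in Cry1, Cry2 and Nr1d1 (4.68%) and TGACGT in Per1 (7.51%). A member was counted if any of its windows matched, whereas the shares are per window, and the 9 members had 13 windows. Both Per1 matches lie inside the deposited gene model but outside its exons. A match is a description of the letters in these windows, not evidence of binding. Sequence elsewhere in or near the genes was not searched, so a member without a match here may still hold such an element.

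The upstream sequences of Arntl and Cry1, the members that passed the test below, end at the base before each deposited gene model. That of Arntl, chr7:113207215-113207464 on the plus strand, held no searched motif, and that of Cry1, chr10:85185065-85185304 on the minus strand, held the E-prime box and the E-box.

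Arntl upstream: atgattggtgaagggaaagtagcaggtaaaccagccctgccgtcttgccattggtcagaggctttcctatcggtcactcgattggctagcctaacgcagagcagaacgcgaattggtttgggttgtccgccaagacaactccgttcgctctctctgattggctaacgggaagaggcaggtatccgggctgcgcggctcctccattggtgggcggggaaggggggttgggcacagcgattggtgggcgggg
Cry1 upstream: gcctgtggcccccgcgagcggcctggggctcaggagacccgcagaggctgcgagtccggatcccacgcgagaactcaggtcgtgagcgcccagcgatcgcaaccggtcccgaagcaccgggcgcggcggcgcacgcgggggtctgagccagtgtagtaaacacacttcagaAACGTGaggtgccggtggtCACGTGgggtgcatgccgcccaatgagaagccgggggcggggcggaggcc

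Rora itself, the targeted gene, was at 5.69, 6.29 and 6.24 RPKM (reads assigned to a gene, scaled to its length and to the library's depth) in cKO libraries, against 6.92, 7.41 and 7.91 RPKM in floxed libraries. The cKO values all lay below the floxed values, with a log2 difference of -0.25 (limma adjusted p = 0.242, not passing). Which exons are deleted is not given, and since whole-gene RPKM also counts exons outside the deleted part, the deletion cannot be checked from it.

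In the cKO libraries Arntl and Cry1 mRNA fell to about the same fraction of the floxed level, 45.3% and 50.9%. No other member passed the test. Of the 10 members, 8 had at least 1 RPKM in at least 3 libraries and were tested, 2 of these fell, 0 rose and 6 did not pass at a Benjamini-Hochberg adjusted p under 0.05 in limma. Among all 12731 tested genes, 0.668% passed as lower and 0.652% as higher. With p unadjusted, 3 tested members passed 0.05 as lower and 2 as higher, against 14.1% of all tested genes in either direction, and limma voom on reads recovered from the RPKM called 2 lower and 1 higher. The median log2 difference was -0.20 over the 8 tested members and -0.03 over all tested genes. Each log2 difference is the cKO mean minus the floxed mean of log2(RPKM + 1), a scale that compresses changes of weakly expressed genes.

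**Figure D1:**
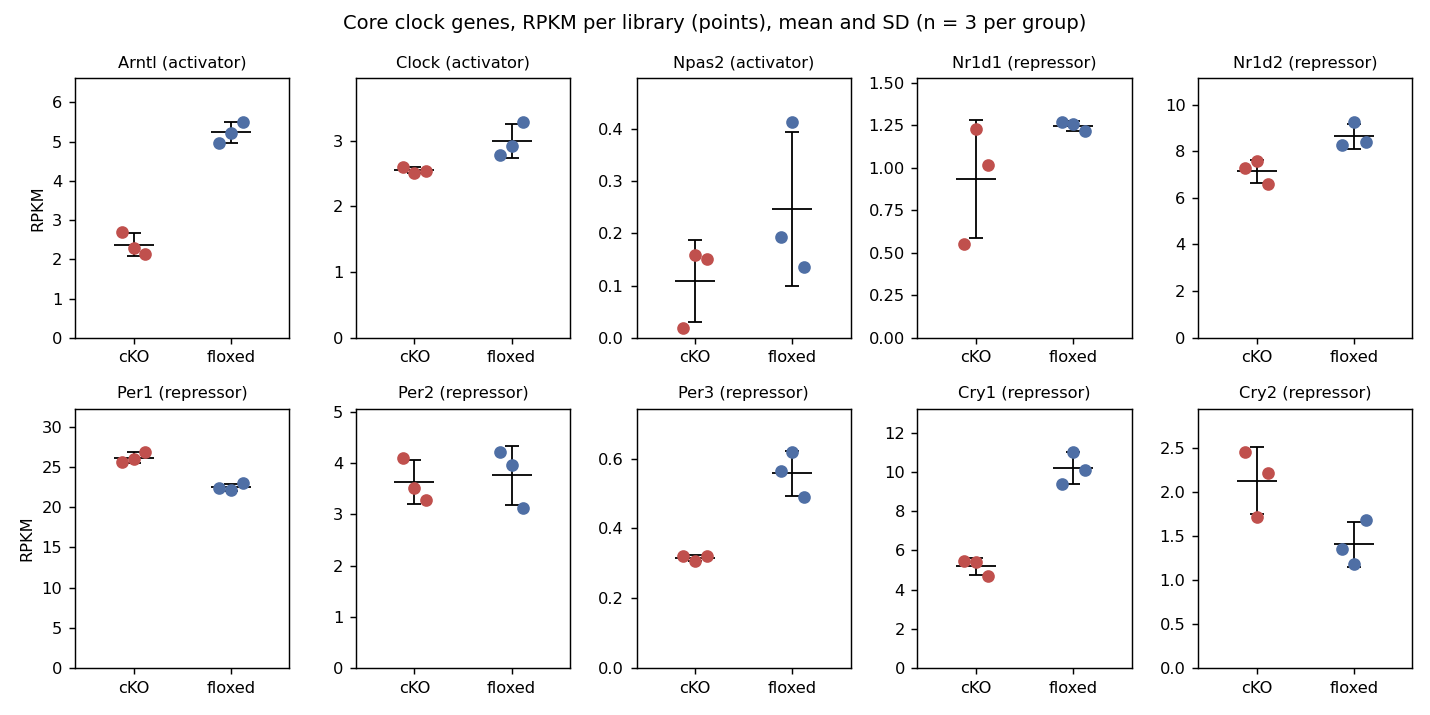
RPKM of the 10 core clock genes in each library (points), with cKO left and floxed right, and the mean and SD of 3 libraries per group; each panel has its own linear axis from 0. In cKO libraries the Arntl values span 2.13 to 2.70 RPKM and the Cry1 values 4.70 to 5.46 RPKM, all below the floxed values, while Per1 and Cry2 lie above them.

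Among the activators, Arntl, the partner that every activator pair of the loop needs, was at 2.70, 2.29 and 2.13 RPKM in cKO libraries, against 4.97, 5.22 and 5.51 RPKM in floxed libraries. Even the highest cKO value lay far below the lowest floxed value. The mean was 2.37 ± 0.290 RPKM in cKO and 5.24 ± 0.270 RPKM in floxed libraries (SD, n = 3 each). This is a log2 difference of -0.89 (limma SE 0.10, 95% confidence interval -1.13 to -0.65, adjusted p = 0.0127), and 102 of the tested genes, Arntl included, were lower by at least as much. These values rest on 354 to 897 reads per library over a gene model on chromosome 7 (113207465 to 113314126, plus strand, mm10). A predicted antisense gene, Gm45355, shares 0.439% of its exon bases. The call was lost without cKO replicate 2 or 3 or floxed replicate 2 or 3, where adjusted p was 0.0611, 0.0575, 0.0613 and 0.0682.

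Clock encodes the usual partner of ARNTL. It was at 2.60, 2.51 and 2.54 RPKM in cKO libraries, against 2.78, 2.92 and 3.29 RPKM in floxed libraries. The groups did not overlap, but the gap between them was narrow, and the log2 difference of -0.17 (95% confidence interval -0.41 to 0.07) did not pass (limma adjusted p = 0.517). The ratio of Arntl to Clock RPKM within a library was 1.04, 0.914 and 0.841 in cKO libraries, against 1.79, 1.79 and 1.68 in floxed libraries. Thus Arntl mRNA stood near the Clock level in cKO libraries and well above it in floxed libraries.

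Npas2, which encodes an alternative partner that can stand in for CLOCK, was barely detected. It had 2, 16 and 16 reads in cKO libraries, against 20, 40 and 14 reads in floxed libraries, or at most 0.414 RPKM. The groups overlapped, and the gene was not tested because it lay under 1 RPKM in every library.

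Cry1, which encodes a strong repressor of the ARNTL-CLOCK pair, was at 5.46, 5.39 and 4.70 RPKM in cKO libraries, against 9.39, 11.02 and 10.1 RPKM in floxed libraries. All cKO values lay well below all floxed values. The mean was 5.18 ± 0.421 RPKM in cKO and 10.2 ± 0.818 RPKM in floxed libraries (SD, n = 3 each), a log2 difference of -0.85 (SE 0.09, 95% confidence interval -1.07 to -0.64; limma adjusted p = 0.00985). The gene lies on chromosome 10 (85131700 to 85185064, minus strand) and rested on 346 to 742 reads per library. Its call was lost without floxed replicate 3 (adjusted p = 0.0542).

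Cry2, the paralog of Cry1, lay in the opposite direction. It was at 2.45, 1.71 and 2.21 RPKM in cKO libraries, against 1.35, 1.18 and 1.68 RPKM in floxed libraries. The groups did not overlap, although the lowest cKO value was close to the highest floxed value, and the log2 difference of 0.38 (95% confidence interval 0.02 to 0.73) did not pass (limma adjusted p = 0.328). A gene on the opposite strand, D930015M05Rik, shares 4.67% of the Cry2 exon bases, and the strand setting of the counting is not given, so reads from this stretch cannot be assigned to either gene with certainty.

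Set against each other within a library, Cry1 exceeded Cry2 by a ratio of 2.22, 3.15 and 2.13 in cKO libraries, against 6.97, 9.36 and 6.01 in floxed libraries. Cry1 remained the more abundant cryptochrome mRNA in every library, at 68.0 to 75.9% of the summed RPKM of both genes in cKO and 85.7 to 90.3% in floxed libraries. The sum of both was 7.30 ± 0.534 RPKM in cKO and 11.6 ± 0.755 RPKM in floxed libraries (SD, n = 3 each). The sum was thus lower in every cKO library than in any floxed library.

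Per1, a period gene that is also induced rapidly by cAMP signalling, was the most abundant member in every library. It was at 25.6, 25.9 and 26.9 RPKM in cKO libraries, against 22.4, 22.1 and 23.0 RPKM in floxed libraries. Every cKO value lay above every floxed value, and replicates were close to one another. Its log2 difference of 0.21 (limma SE 0.05, 95% confidence interval 0.09 to 0.32) did not pass (adjusted p = 0.126). With limma voom on recovered reads it passed as higher (adjusted p = 0.0360), where 1.76% of tested genes were called higher and 2.42% lower.

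Per2, the period gene whose loss shortens and then abolishes rhythms in mice, was at 4.11, 3.51 and 3.29 RPKM in cKO libraries, against 4.22, 3.96 and 3.12 RPKM in floxed libraries. The groups overlapped almost fully, and the log2 difference was -0.04 (95% confidence interval -0.34 to 0.27; limma adjusted p = 0.929). Per3, the least abundant period gene, was at 0.320, 0.306 and 0.321 RPKM in cKO libraries, against 0.566, 0.620 and 0.491 RPKM in floxed libraries. It rested on 62 to 69 reads in cKO and 102 to 120 reads in floxed libraries, which did not overlap, but it lay under 1 RPKM throughout and was not tested. Without a filter on low values its limma adjusted p was 0.357. Summed over the 3 period genes, RPKM was 30.1 ± 0.377 in cKO and 26.8 ± 0.310 in floxed libraries (SD, n = 3 each), with Per1 at 85.2 to 88.2% of it in cKO and 82.4 to 86.4% in floxed libraries.

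The REV-ERB genes encode the receptors that compete with RORα at ROREs. Nr1d2 was at 7.27, 7.56 and 6.59 RPKM in cKO libraries, against 8.25, 9.27 and 8.38 RPKM in floxed libraries. Its groups did not overlap, and the log2 difference of -0.24 (95% confidence interval -0.44 to -0.05) did not pass (limma adjusted p = 0.259). Nr1d1 was at 0.550, 1.23 and 1.02 RPKM in cKO libraries, against 1.27, 1.26 and 1.22 RPKM in floxed libraries. The groups overlapped narrowly, since cKO replicate 2 exceeded floxed replicate 3, and cKO replicate 1 stood apart with 38 reads against 69 to 85 in the other 5 libraries. The log2 difference was -0.24 (95% confidence interval -0.65 to 0.18; limma adjusted p = 0.618), and it was -0.08 without cKO replicate 1 and -0.51 with voom. Nr1d1 shares 8.55% of its exon bases with Thra on the opposite strand, so reads in that stretch are uncertain.

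**Figure D2:**
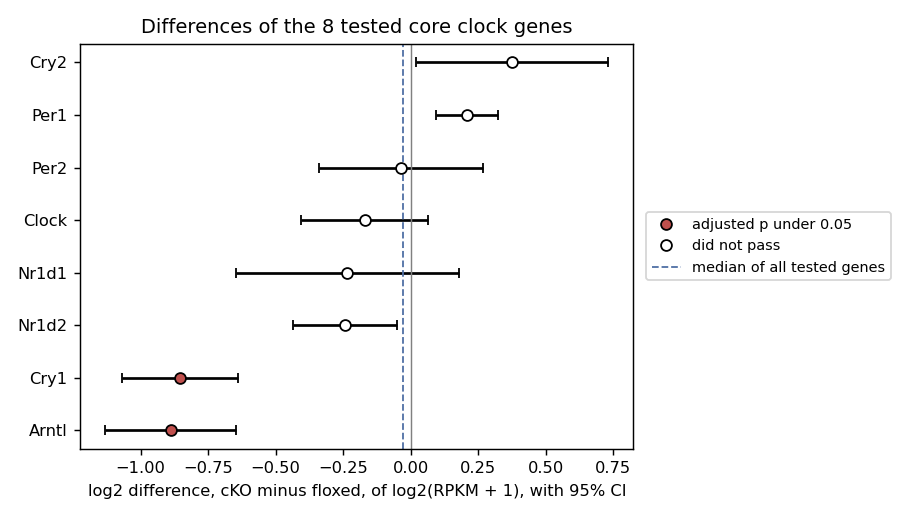
Log2 difference, cKO minus floxed, of log2(RPKM + 1) for the 8 tested core clock genes, with 95% confidence intervals from limma; filled points passed at an adjusted p under 0.05 and the dashed line is the median of all tested genes (-0.03). Arntl (-0.89) and Cry1 (-0.85) stand apart from the other members, which lie between -0.24 and 0.38.

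The division into activators and repressors did not separate the differences by direction. Of the 3 activators, all had a lower mean in cKO libraries, and Arntl passed. Of the 7 repressors, 5 had a lower mean, Cry1 among them as the one that passed, and Per1 and Cry2 had a higher mean. The mean log2(RPKM + 1) of the activators was 1.24 ± 0.02 in cKO and 1.65 ± 0.06 in floxed libraries, and that of the repressors 2.23 ± 0.02 in cKO and 2.37 ± 0.02 in floxed libraries (SD, n = 3 each). Activators minus repressors came to -0.98, -0.99 and -0.98 in cKO libraries, against -0.79, -0.69 and -0.69 in floxed libraries. Both means were thus lower in cKO libraries, that of the activators by more, and no test was made of this score because the members were chosen with results known. The score includes Npas2, which was barely detected, and its difference between groups was -0.26, against -0.46 with a pseudocount of 0.1 RPKM and -0.68 with voom.

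Groups did not overlap in 6 of the 8 tested members, 4 of them lower and 2 higher, against 20.3% of all tested genes, 12.7% lower and 7.61% higher. In an exact two-sided permutation test of the group means, groups that do not overlap always give p = 0.1. This is the smallest value that 20 assignments of 3 against 3 libraries allow, so the test adds nothing for these 6. Per3, untested, was the seventh of the 10 members with separate groups.

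Levels per gene length span a wide range within the loop. In cKO libraries mean RPKM fell in the order Per1, Nr1d2, Cry1, Per2, Clock, Arntl, Cry2, Nr1d1, Per3 and Npas2. In floxed libraries the order was Per1, Cry1, Nr1d2, Arntl, Per2, Clock, Cry2, Nr1d1, Per3 and Npas2. Arntl held rank 6 in cKO libraries and rank 4 in floxed libraries, and Cry1 rank 3 in cKO and rank 2 in floxed libraries. In cKO libraries the values of Clock overlapped those of Arntl, and Arntl those of Cry2. In floxed libraries Per2 overlapped Clock, and Cry2 overlapped Nr1d1. The other neighbours in each order did not overlap.

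The ratio of Per1 to Arntl RPKM within a library was 9.50, 11.3 and 12.6 in cKO libraries, against 4.50, 4.23 and 4.17 in floxed libraries. Most of this separation came from Arntl, since Per1 stood at 116% of its floxed mean in cKO libraries and Arntl at 45.3%.

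**Figure D3:**
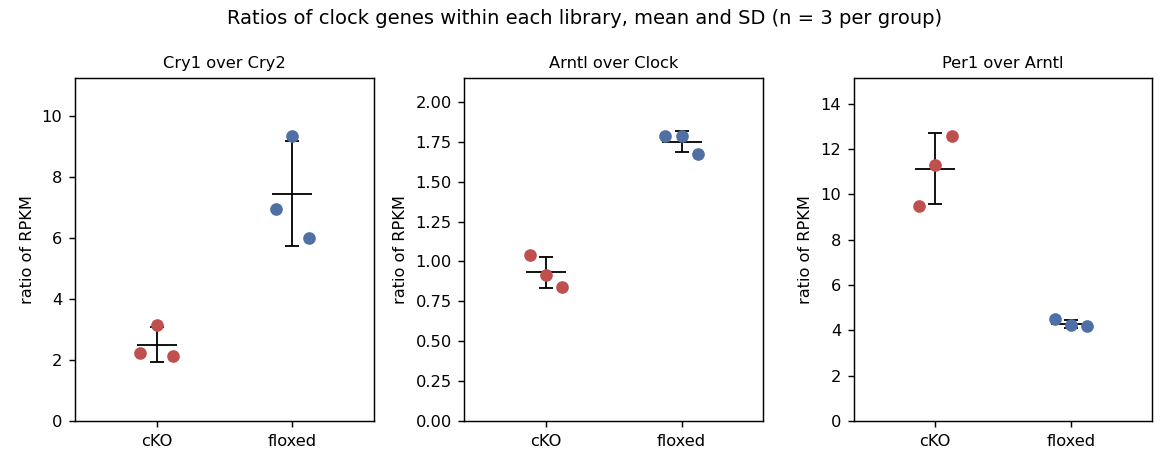
Ratio of RPKM between clock genes within each library (points), cKO left and floxed right, with the mean and SD of 3 libraries per group, on linear axes from 0. Cry1 over Cry2 is 2.13 to 3.15 in cKO and 6.01 to 9.36 in floxed libraries, Arntl over Clock is 0.841 to 1.04 in cKO and 1.68 to 1.79 in floxed libraries, and Per1 over Arntl is 9.50 to 12.6 in cKO and 4.17 to 4.50 in floxed libraries.

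Arntl and Cry1 were also close to each other in profile. Likeness was measured as the root mean square difference of log2(RPKM + 1), each gene centred on its mean over the 6 libraries. The genes nearest to Arntl were Cd8b1 (0.07), Cry1 (0.07) and Klrb1b (0.08), and the gene nearest to Cry1 was Arntl, followed by Psd2 and 8430422M14Rik (0.09 each). All of these were lower in cKO libraries, and Cd8b1, at 0.265 ± 0.190 RPKM in cKO and 1.27 ± 0.220 RPKM in floxed libraries (SD, n = 3 each), did not pass (limma adjusted p = 0.0976). With a group difference in every profile, this measure mainly ranks genes by the size of that difference.

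Around the loop, clock outputs and genes that act at its elements lay in both directions. Of 10 listed genes, 6 were tested, and limma called 1 higher and 0 lower. With p unadjusted, 3 passed 0.05 as higher and 1, Rora, as lower, and voom called 3 higher and 1 lower. Nfil3, a repressor of D-box genes that is itself a RORE target, rose to 56.4 ± 2.36 RPKM in cKO, against 43.3 ± 1.34 RPKM in floxed libraries (SD, n = 3 each; limma adjusted p = 0.0231). A pair of further repressors of the ARNTL-CLOCK pair, whose groups lay apart, did not pass in limma but were called higher by voom. Bhlhe40, which encodes DEC1, averaged 81.0 ± 2.96 RPKM in cKO and 67.7 ± 2.85 RPKM in floxed libraries (adjusted p = 0.0779). Ciart, which encodes CHRONO, averaged 10.6 ± 0.920 RPKM in cKO and 6.54 ± 0.849 RPKM in floxed libraries (adjusted p = 0.0568). Their list had a median log2 difference of 0.08, beside -0.03 over all tested genes, and Rora is one of its members.

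Genes for kinases, ubiquitin ligases and cofactors that set the stability and activity of clock proteins gave no call in limma. Of 32 listed, 29 were tested, and in limma 0 rose and 0 fell. With p unadjusted, 1 passed 0.05 as higher and 4 as lower, and voom called 0 higher and 2 lower. Their median log2 difference was -0.07. Nono, a cofactor of PER complexes, averaged 201 ± 7.04 RPKM in cKO and 188 ± 4.97 RPKM in floxed libraries (adjusted p = 0.385). Its partner Sfpq averaged 199 ± 4.90 RPKM in cKO and 213 ± 4.12 RPKM in floxed libraries (adjusted p = 0.325).

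**Figure D4:**
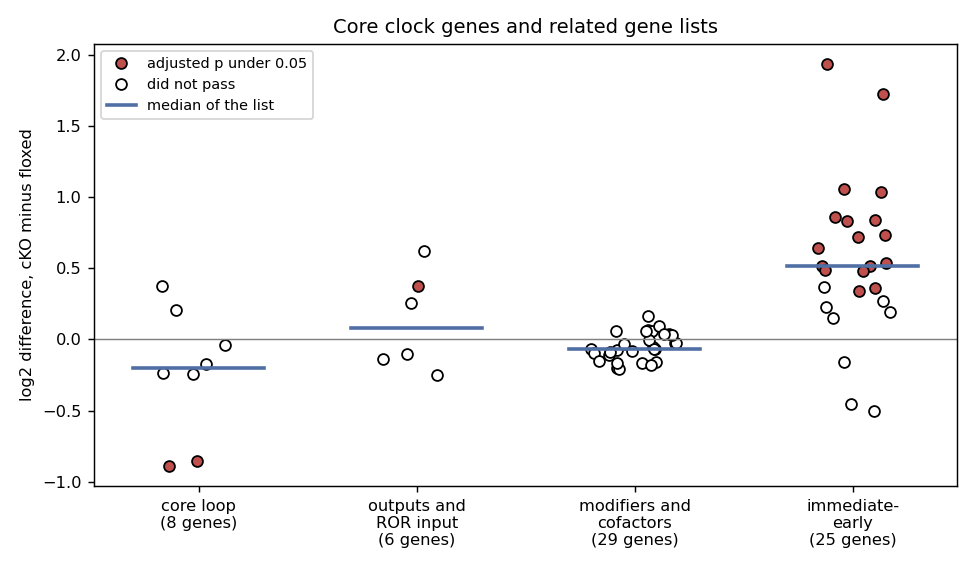
Log2 difference, cKO minus floxed, of log2(RPKM + 1) for the tested genes of the core loop and of 3 related lists; each point is a gene, filled points passed at an adjusted p under 0.05 and the bar is the median of the list. The medians are -0.20 for the core loop, 0.08 for outputs and ROR input, -0.07 for modifiers and cofactors and 0.52 for immediate-early genes, a list that includes 3 heat-shock genes.

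Several other features differed between the same libraries. A list of immediate-early genes, the rapid-response class to which Per1 also belongs, that also holds the heat-shock genes Hspa1a, Hspa1b and Dnajb1, passed as higher in 17 of 25 tested cases and as lower in 0 with limma (20 and 2 with p unadjusted, 20 and 1 with voom). Hspa1a and Hspa1b are 2 of these calls and had the largest log2 differences of the list, 1.94 and 1.73. The list summed to 3602 to 3642 RPKM in cKO and 2254 to 2308 RPKM in floxed libraries. Xist, the RNA of the inactive X, averaged 9.43 ± 0.394 RPKM in cKO and 31.9 ± 3.16 RPKM in floxed libraries, and the Y-linked Ddx3y 20.8 ± 0.438 RPKM in cKO and 10.4 ± 0.498 RPKM in floxed libraries (SD, n = 3 each), so each group held RNA of both kinds in unequal parts.

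The marker list for the labelled cells joins type 1 ILC and NK genes, so as a whole it does not tell ILC1s from NK cells. Of its genes, 15 of 15 passed the filter on low values. They summed to 1223 to 1266 RPKM in cKO and 1398 to 1407 RPKM in floxed libraries. In limma 1 was higher (Eomes) and 3 were lower (Ncr1, Cxcr6 and Il7r). Counts were 2 higher and 6 lower with p unadjusted, and 1 higher and 4 lower with voom. Eomes averaged 65.8 ± 4.31 RPKM in cKO and 42.4 ± 2.44 RPKM in floxed libraries (SD, n = 3 each). Cxcr6 averaged 4.69 ± 0.453 RPKM in cKO and 8.90 ± 1.04 RPKM in floxed libraries (SD, n = 3 each). Most of the difference in the sum lies in Ncr1, the gene named in the cKO columns, at 246 ± 12.5 RPKM in cKO and 372 ± 10.8 RPKM in floxed libraries, and in Il7r, at 190.5 ± 1.93 RPKM in cKO and 228 ± 5.49 RPKM in floxed libraries (SD, n = 3 each). The 7 dendritic cell markers summed to 58.4 to 66.3 RPKM in cKO and 94.95 to 104.1 RPKM in floxed libraries, with Flt3, Siglech and Clec9a under 1 RPKM in all libraries. Most of that sum is the MHC class II genes H2-Ab1 and Cd74, which B cells also express and which were the 2 of 3 tested members that fell, while Zbtb46 averaged 2.73 ± 0.258 RPKM in cKO and 2.47 ± 0.428 RPKM in floxed libraries (SD, n = 3 each) and did not pass. Among B cell genes, Cd22 fell to 6.49 ± 0.649 RPKM in cKO, against 9.93 ± 0.285 RPKM in floxed libraries (SD, n = 3 each; limma adjusted p = 0.0353). Cd79b was at 0.866 ± 0.547 RPKM in cKO and 1.71 ± 0.206 RPKM in floxed libraries, and Ighm at 76.2 ± 5.60 RPKM in cKO and 65.6 ± 2.18 RPKM in floxed libraries (SD, n = 3 each), and neither passed. The 8 T cell markers summed to 60.9 to 65.7 RPKM in cKO and 68.5 to 71.3 RPKM in floxed libraries. Of 6 tested, limma called 1 lower (Cd3e) and 0 higher (3 lower with p unadjusted, 2 lower with voom). Cd4 averaged 27.6 RPKM in cKO and 27.7 RPKM in floxed libraries, and Cd3d 13.0 and 12.7 RPKM. Cd3g averaged 12.9 RPKM in cKO and 13.0 RPKM in floxed libraries, and Trac 6.64 and 9.47 RPKM. None of these 4 passed in limma, and Cd8a and Cd5 lay under 1 RPKM. The 8 myeloid markers summed to 36.7 to 37.7 RPKM in cKO and 39.6 to 42.6 RPKM in floxed libraries, with 0 of 4 tested passing in limma (0 higher and 1 lower with p unadjusted, 0 with voom). The ILC2 markers summed to 15.7 to 19.5 RPKM in cKO and 15.1 to 16.6 RPKM in floxed libraries. Nearly all of that sum was Gata3, at 17.1 ± 2.08 RPKM in cKO and 15.7 ± 0.724 RPKM in floxed libraries (SD, n = 3 each). The ILC3 markers summed to 4.11 to 6.53 RPKM in cKO and 3.50 to 4.76 RPKM in floxed libraries. Il1rl1, Il5, Il17rb and Il23r lay under 1 RPKM. None of the 3 tested ILC2 and ILC3 markers passed in limma (1 higher with p unadjusted, 0 with voom). The part of any of these in the differences of clock genes was not tested, and in bulk libraries fewer cells of a type and less RNA per cell cannot be told apart.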

How the data were processed

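Reads assigned to genes numbered 20152146 to 22440170 per library, from 2 µg of total RNA per stranded mRNA library, per the labels' protocols. The submitters' processing notes name edgeR 3.12.1, Subread 1.5.1, featureCounts, STAR 2.5.3a and mm10. The role of each, the strand setting and duplicate handling are not stated there. The authors deposited RPKM per gene and library with exon coordinates and gene length, per the file headers. In each library RPKM times length came in steps of 1 read for 100% of values (tolerance 0.001 reads), which gave the reads behind each value.

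The test was limma 3.58.1 in R 4.3.3 (lmFit and trended eBayes) on log2(RPKM + 1), two-sided, on all 6 libraries, for the 12731 genes that reached 1 RPKM in 3 or more libraries, with Benjamini-Hochberg adjustment over all of them. Beside the members, at most 4 passing and 2 other genes by expression are named per clock list, and the 3 nearest profiles of Arntl and of Cry1. The members and lists were chosen with earlier results of these data known. Marker, immediate-early and sex-linked lists are given by sums, counts and examples. One further marker list is not reported in full here. The fits were run on simulated data with known changes only as a check of the code. The simulation gave all genes the same dispersion, so it does not measure error rates in these libraries. No pair of libraries agreed within sampling noise: over genes with many reads, chi-square per gene was 6.79 to 15.8 within groups and 19.9 to 28.6 between groups. Alternatives were another pseudocount, filter, scaling and test, the replicate block and leaving out each library.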

Additional observations from a re-analysis of the deposited data

How the results depend on the processing

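Over 11 alternatives for Arntl and 12 for Cry1 the log2 difference stayed negative, at -1.145 to -0.84 and -0.97 to -0.80, with adjusted p of 5.25e-07 to 0.0842 and 1.07e-05 to 0.0567. Of the core members, 2 fell and 0 rose; leaving out 1 library gave 0 to 2 that fell and 0 that rose, and over all genes 33 to 51 higher and 27 to 39 lower. Same-numbered libraries did not deviate together (r = -0.0316, 0.0132 and 0.0436). Correlations over all tested genes cannot exclude that the numbers mark a pairing, which is not stated. With the replicate block 0 members fell, and limma adjusted p was 0.0842 for Arntl and 0.0567 for Cry1. The block gave 37 genes higher and 23 lower, against 83 and 85. Limma voom on recovered reads called 1 member higher (Per1), with 224 genes higher and 308 lower. Without a filter 44 genes were higher and 36 lower. A filter of at least 5 RPKM left 1 member lower, since Arntl was no longer tested. An absolute log2 difference of at least 1 left 0 members lower, with 13 genes higher and 10 lower. Median-of-ratios scaling called 110 higher and 73 lower. The difference between groups in activators minus repressors was -0.26, -0.46 with a pseudocount of 0.1 RPKM and -0.68 with voom, and -0.29 to -0.25 with 1 library left out. Per2 ranged from -0.14 to 0.033 with 1 library left out, changed sign without cKO replicate 3 (0.018) and without floxed replicate 1 (0.033), and passed in no alternative. Depth limits Npas2, Per3 and Nr1d1, which rested on 2 to 40, 62 to 120 and 38 to 85 reads.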
